A study of Mus musculus with 8 samples.

Results

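Called peaks of open chromatin 1500 bp or more wide were rare in granule neuron progenitors (GNPs). GNPs are the dividing cells that give rise to the granule neurons of the cerebellum. The wild-type (WT) list of ATAC-seq peaks held 149637 peaks on the 19 autosomes, and 632 of them (0.422%) were at least 1500 bp wide, counting both end bases. Gaps of up to 107 bp were closed in the WT list, so a wide peak need not be open throughout. These 632 wide peaks are the members described here. They were chosen by their measured WT width, which is therefore no finding, and WT values that grow with width are given as description alone. Together they covered 1081 kb, or 2.32% of all autosomal bases under WT peaks.

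In ATAC-seq the Tn5 transposase cuts DNA that nucleosomes leave free and inserts sequencing adapters there, so dense insertions mark regulatory DNA. Most mammalian promoters with many CpG dinucleotides, the CpG islands, stay unmethylated and open in many cell types, whereas distal enhancers are usually narrower and more cell-type specific. Chd7 is an ATP-dependent chromatin remodeller that binds promoters and enhancers, and the study asked whether its loss alters DNA accessibility in GNPs.

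The 8 libraries came from GNPs of the cerebellum of mice at postnatal day 7, labelled as strain C56Bl6/J. WT had 3 libraries and mutant 3, described in the study's methods as technical replicates, and het had 2. Per the study, WT carried floxed Chd7 alleles without Cre, mutant was homozygous (Atoh1-Cre::Chd7 f/f) and het heterozygous (Atoh1-Cre::Chd7 f/+), with Cre driven by Atoh1, a gene of the granule lineage. GNPs were purified by percoll from pups whose sex was not told apart, so other cells may remain. Each of the 3 deposited lists was called on the pooled libraries of 1 genotype, so spread between libraries is unknown and genotypes are set side by side without a test. Over the targeted gene and its 5 kb upstream, Chd7, the WT list held 29 peaks, mutant 37 and het 20, the widest of 1079, 1080 and 1560 bp, and a peak list cannot show whether the floxed exon was lost. All 27 autosomal genes on a list of granule lineage and hedgehog factors held a peak in each genotype, as did 26 of 27 markers of other cerebellar cells, so a peak alone did not tell these cell types apart.

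The lists differed in ways that bear on width. The smallest gap left between neighbouring peaks was 108 bp in WT and het but 77 bp in mutant, each 1 bp more than the tag size in the file header (107, 107 and 76 bp). Gaps of 77 to 107 bp therefore split peaks in mutant and were closed in WT. For this reason each width is also given after mutant peaks up to 107 bp apart were joined, called the joined mutant list. The number of wide autosomal peaks was 517 in mutant as deposited and 675 when joined, against 632 in WT, so its direction turned with the joining. The het list held 963, but het was aligned with another tool and extended to 200 bp per tag, against 90 bp in WT and 88 bp in mutant, so genotype and processing cannot be told apart there.

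The sequence under these peaks falls into a few kinds, and 300 bases around the WT summit are printed for the members that show them, read from RefSeq GRCm38, with every CG dinucleotide in capitals. Nrg3, which encodes a neuregulin that binds ErbB4, holds the widest member at a start site outside multi-copy DNA, and Cacna2d3, an auxiliary subunit of voltage-gated calcium channels, is the member with the smallest share of its bases under mutant peaks. Both windows are typical CpG-rich promoters, with 36 and 38 CG dinucleotides.
Nrg3, chr14:39473410-39473709, plus strand: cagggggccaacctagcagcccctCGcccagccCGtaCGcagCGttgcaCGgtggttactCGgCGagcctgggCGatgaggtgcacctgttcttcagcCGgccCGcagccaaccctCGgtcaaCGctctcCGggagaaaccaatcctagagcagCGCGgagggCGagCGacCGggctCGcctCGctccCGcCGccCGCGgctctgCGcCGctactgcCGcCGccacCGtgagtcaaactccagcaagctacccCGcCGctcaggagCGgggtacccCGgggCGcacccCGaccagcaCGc
Cacna2d3, chr14:29722460-29722759, plus strand: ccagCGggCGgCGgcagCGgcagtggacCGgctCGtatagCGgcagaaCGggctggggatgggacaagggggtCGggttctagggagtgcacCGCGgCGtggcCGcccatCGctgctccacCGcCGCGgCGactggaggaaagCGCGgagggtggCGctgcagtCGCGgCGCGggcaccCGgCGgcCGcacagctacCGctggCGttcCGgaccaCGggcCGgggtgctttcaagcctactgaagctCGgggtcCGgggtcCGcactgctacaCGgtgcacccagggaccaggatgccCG
Members far from genes were poorer in CG, with 8 in each of the windows below. The first lies 35227 bp from the start of Slc24a5 and the second 56894 bp from that of Gm47424, the latter being second lowest in mutant coverage.
Intergenic, Slc24a5 side, chr2:125031867-125032166, plus strand: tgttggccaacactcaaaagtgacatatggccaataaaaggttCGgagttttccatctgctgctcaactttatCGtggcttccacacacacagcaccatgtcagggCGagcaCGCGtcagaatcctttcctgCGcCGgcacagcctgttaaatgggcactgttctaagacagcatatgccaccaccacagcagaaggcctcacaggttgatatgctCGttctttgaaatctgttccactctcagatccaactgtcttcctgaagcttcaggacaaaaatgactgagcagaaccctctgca
Intergenic, Gm47424 side, chr13:63918098-63918397, plus strand: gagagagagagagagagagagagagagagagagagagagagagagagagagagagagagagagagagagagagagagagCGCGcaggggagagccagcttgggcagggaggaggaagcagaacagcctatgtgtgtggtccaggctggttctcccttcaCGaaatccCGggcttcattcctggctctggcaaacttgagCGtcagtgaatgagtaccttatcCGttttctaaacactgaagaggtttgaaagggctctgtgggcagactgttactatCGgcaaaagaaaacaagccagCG
The second-widest member, shown although the rule for sequences did not select it, lies between genes 2066 bp from the start of Spaca6 and 1250 bp from Mir99b, the first hairpin of the cluster with let-7e and miR-125a. Its window holds 9 CG dinucleotides.
Upstream of the miR-99b cluster, chr17:17826742-17827041, plus strand: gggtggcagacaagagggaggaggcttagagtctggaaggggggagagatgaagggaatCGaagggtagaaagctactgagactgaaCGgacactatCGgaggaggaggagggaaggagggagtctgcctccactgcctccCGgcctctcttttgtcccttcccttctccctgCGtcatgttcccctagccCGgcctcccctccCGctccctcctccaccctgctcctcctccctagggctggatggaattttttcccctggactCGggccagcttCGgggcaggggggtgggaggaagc
The last windows come from DNA with many copies. The widest member overlaps a ribosomal RNA related sequence, Gm21738 lies on masked repeats, and the last matches the mitochondrial genome.
Ribosomal RNA locus, chr17:39845270-39845569, plus strand: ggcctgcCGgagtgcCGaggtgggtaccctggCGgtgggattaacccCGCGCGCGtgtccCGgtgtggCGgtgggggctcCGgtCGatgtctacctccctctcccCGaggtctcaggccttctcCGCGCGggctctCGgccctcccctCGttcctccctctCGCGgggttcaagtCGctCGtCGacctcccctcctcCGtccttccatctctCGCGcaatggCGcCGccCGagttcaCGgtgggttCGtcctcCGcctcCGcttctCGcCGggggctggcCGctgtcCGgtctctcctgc
Gm21738, chr14:19417168-19417467, plus strand: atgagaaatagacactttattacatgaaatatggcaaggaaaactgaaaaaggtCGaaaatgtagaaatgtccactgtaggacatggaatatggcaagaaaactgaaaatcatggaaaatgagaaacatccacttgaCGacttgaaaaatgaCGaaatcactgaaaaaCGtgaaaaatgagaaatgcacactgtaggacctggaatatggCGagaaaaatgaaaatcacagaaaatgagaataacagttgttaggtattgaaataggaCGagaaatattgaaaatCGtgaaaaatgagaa
Mitochondrial copy, chr1:24612968-24613267, plus strand: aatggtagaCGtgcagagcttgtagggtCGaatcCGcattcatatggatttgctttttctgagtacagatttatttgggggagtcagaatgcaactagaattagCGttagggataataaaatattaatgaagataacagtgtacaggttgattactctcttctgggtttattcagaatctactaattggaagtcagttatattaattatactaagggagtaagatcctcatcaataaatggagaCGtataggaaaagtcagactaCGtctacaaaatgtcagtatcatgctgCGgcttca

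Of the 632 members, 14 lay on multi-copy DNA, and these are set apart before the other results as short reads are hard to place uniquely there. For 11 of them, at least 50% of the sequence matched another place in the genome at 90% identity or more, 2 others had at least 50% of their bases masked as repeats, and 1 is the ribosomal RNA locus. Repeats made up at least 50% of 2 members (0.316%, Wilson 95% CI 0.0868 to 1.15%) against 6.47% of all autosomal WT peaks.
The member with the tallest WT summit, 176 tags, was chr1:24612431-24614561, 2131 bp wide, which matched mitochondrial DNA at 99.9% identity. A group of 6 members lay within chr14:3332028-7659181, at or near Gm2956, Gm3173, Gm3252, Gm3752, Gm8281 and Gm10128, each with 3 to 33 other matches at 97.0 to 98.6% identity. Their WT summits were low, at 25 to 31 tags, and their mutant summits were 21 to 31 tags. The remaining multi-copy members included Zmym2 and Zmym5, which match each other, Asap2 and Smarca5.
Mutant peaks covered at least 80% of the bases in 12 of the 14, and het peaks in 3. Median coverage over the 14 was 96.0% in mutant and 56.4% in het, against 95.6% and 98.9% over the other 618 members. Per the study's methods reads were kept only where they mapped uniquely, with bowtie, whereas the WT and mutant headers name alignments by STAR, and the part of this difference in the het values was not tested. Gm3252 (chr14:4726210-4727722, 1513 bp) was the only member with no het peak.

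Most wide WT peaks lay at promoters. An annotated transcription start site of a protein-coding or long non-coding gene lay inside 582 of 632 members (92.1%, Wilson 95% CI 89.7 to 93.9%), against 9.20% of all autosomal WT peaks. A wider peak has more bases in which a start site can lie, and the share rose through the width classes, from 0.980% below 200 bp to 32.5% at 500 to 999 bp and 80.1% at 1000 to 1499 bp. Read at the summit, 566 members lay within 1 kb of a start site, 29 were intergenic, 27 intronic and 10 exonic. In all, 178 members (28.2%, 24.8 to 31.8%) held start sites of 2 or more genes, which is 30.6% of the members with a start site against 16.2% of all 13765 start-site peaks. Among the 77 members with starts of 2 or more coding genes, 59 held a divergent pair, as at Lpxn and Zfp91, a focal adhesion adaptor and a zinc-finger protein. Divergent pairs were not counted in the other peaks, so this count describes the members alone.

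Around the start site the open region was not symmetric. Over the 404 members with starts of 1 gene, the peak reached a median of 677 bp upstream (quartiles 479 and 878) and 981 bp downstream (787 and 1215). More bases lay downstream than upstream in 285 of the 404 (70.5%, 65.9 to 74.8%), while the summit lay upstream in 298, with a median offset of -68 bp. These values were not computed for narrower start-site peaks, so they do not show whether the asymmetry is particular to wide peaks. At Trio, a guanine nucleotide exchange factor, the member reached 600 bp upstream and 1626 bp downstream. In the profile around start sites, the 4 lists ran close together.

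**Figure D1:**
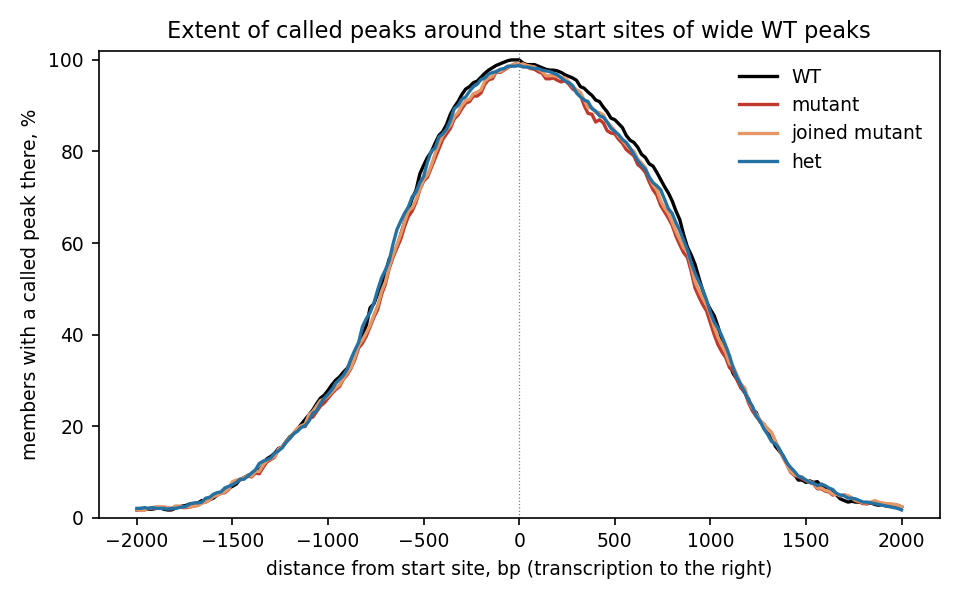
Share of the 582 members with a start site inside that have a called peak at each distance from the start site nearest the WT summit, in bp with transcription to the right, for the WT, mutant, joined mutant and het lists. WT is at 100% at 0 by choice of members. At 600 bp downstream the shares are 82.0% in WT, 79.0% in mutant, 80.1% in joined mutant and 79.4% in het, and at 1000 bp upstream 27.8%, 26.1%, 26.6% and 27.0%.

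The members were rich in GC and CpG. Median GC content was 66.0% (quartiles 62.4 and 69.1%) and the median ratio of observed to expected CpG was 0.80 (0.69 and 0.88). With GC of at least 50% and a ratio of at least 0.6, 558 members (88.3%, 85.6 to 90.6%) counted as CpG-rich, against 10.8% of all autosomal WT peaks. Against start-site peaks alone, the step was smaller, 92.1% of the 582 members with a start site and 73.2% of all 13765, at median GC of 66.2% and 62.9%. Of the 50 members without a start site, 44.0% were CpG-rich, against 4.48% of all such peaks.

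**Figure D2:**
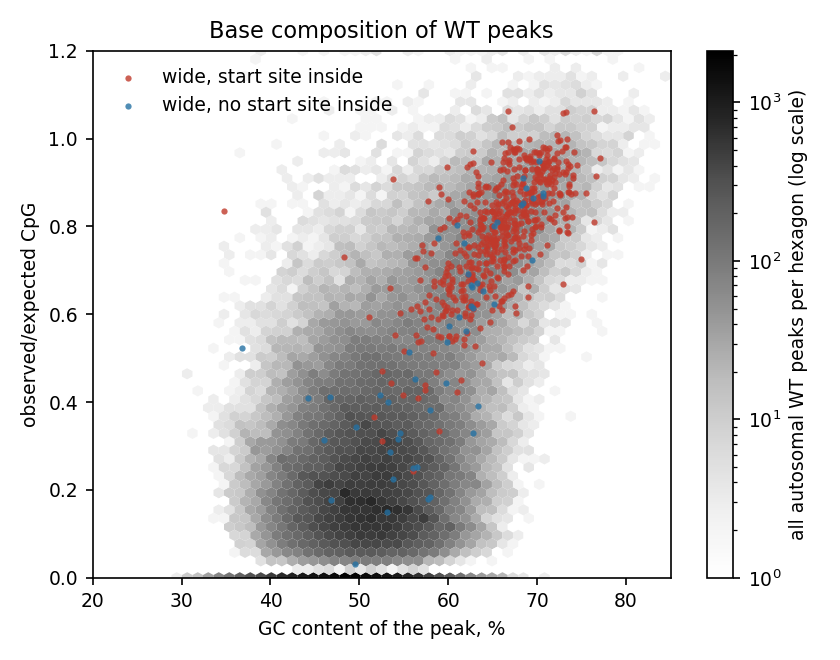
GC content of each peak, in %, against its ratio of observed to expected CpG, for all autosomal WT peaks (grey, log scale, ratios above 1.2 drawn at 1.2) and for the 632 wide peaks with (red) and without (blue) a start site inside. Members with a start site sit at high GC and high CpG around a median of 66.2% and 0.81, and the lone red point at low GC is Gm21738 at 34.8%.

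Short motifs were counted in the 300 bases around the summit. The GC box GGGCGG, which Sp1 and Sp3 bind, was found on either strand in 471 members (74.5%) against 13.8% of all autosomal WT peaks, and in 78.2% of members with a start site against 65.7% of all start-site peaks. The E-box CAGCTG was found in 16.9% of members and 28.6% of all peaks, the NFI motif TTGGCA in 11.2% and 27.4%, the AP-1 motif TGANTCA in 2.53% and 8.98%, and the Zic-like CAGCAGG in 10.3% and 15.6%. Within start-site peaks these contrasts shrank, to 16.2% and 19.3% for the E-box and 9.79% and 12.1% for the Zic-like motif. The cAMP response element TGACGTCA was found in 3.01% of members and 0.673% of all peaks, but in 3.26% and 3.29% of start-site peaks. The NRF1 core GCGCATGCG was present in 1.42% of members and 0.374% of all peaks, but in 1.55% of those with a start site against 2.76% of all start-site peaks. All 7 motifs were searched on both strands, none contains another, and a match describes letters only.

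Wide peaks were tall but not the most enriched. The median summit pileup was 69 tags (range 23 to 176) against 62 at 1000 to 1499 bp and 20 at 200 to 499 bp. The median fold enrichment over local background was 7.57, below the 9.21 of the 1000 to 1499 bp class. The background comes from the surrounding 10000 bp, without a control library, and so includes a wide peak's own tags. Coding genes with a start in a member had a median length of 66.5 kb (654 genes), against 26.5 kb for the 12830 coding genes with a start in any autosomal WT peak.

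No member was lost in the mutant. All 632 were overlapped by at least 1 bp by a mutant peak (100%, Wilson 95% CI 99.4 to 100%), against 77.0% of all autosomal WT peaks, and 631 (99.8%, 99.1 to 100%) by a het peak, against 63.0%. All 4163 WT peaks of 1000 to 1499 bp also had a mutant peak, so that complete overlap began below the width limit. At least 80% of the bases lay under mutant peaks in 610 members (96.5%, 94.8 to 97.7%) and under het peaks in 605 (95.7%, 93.9 to 97.0%), against 52.2% and 53.3% of all peaks. Median coverage was 95.6% in mutant, 97.8% in joined mutant and 98.8% in het.

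Whether a member was wide in the other genotypes depended on how peaks were joined. A mutant peak of 1500 bp or more overlapped 383 members (60.6%, 56.7 to 64.3%), and 456 (72.2%, 68.5 to 75.5%) in the joined list. For het the number was 508 (80.4%, 77.1 to 83.3%). Over all autosomal WT peaks the shares were 0.394% for mutant, 0.555% for joined mutant and 0.877% for het, and the contrast follows from the choice of members by width. Members were split over 2 or more mutant peaks in 211 cases (33.4%, 29.8 to 37.2%), against 3.01% of all peaks. After joining the number was 109 (17.2%, 14.5 to 20.4%), against 1.49%. Over 2 or more het peaks lay 54 (8.54%), against 0.334%. The split share in mutant rose with WT width, and at 1000 to 1499 bp it was 16.9%, or 9.13% after joining. As deposited, 421 members had 1 mutant peak, 181 had 2, 28 had 3 and 2 had 4.
With the joined list, 409 members were wide in all 3 genotypes, 47 in WT and mutant alone, 99 in WT and het alone and 77 in WT alone.

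**Figure D3:**
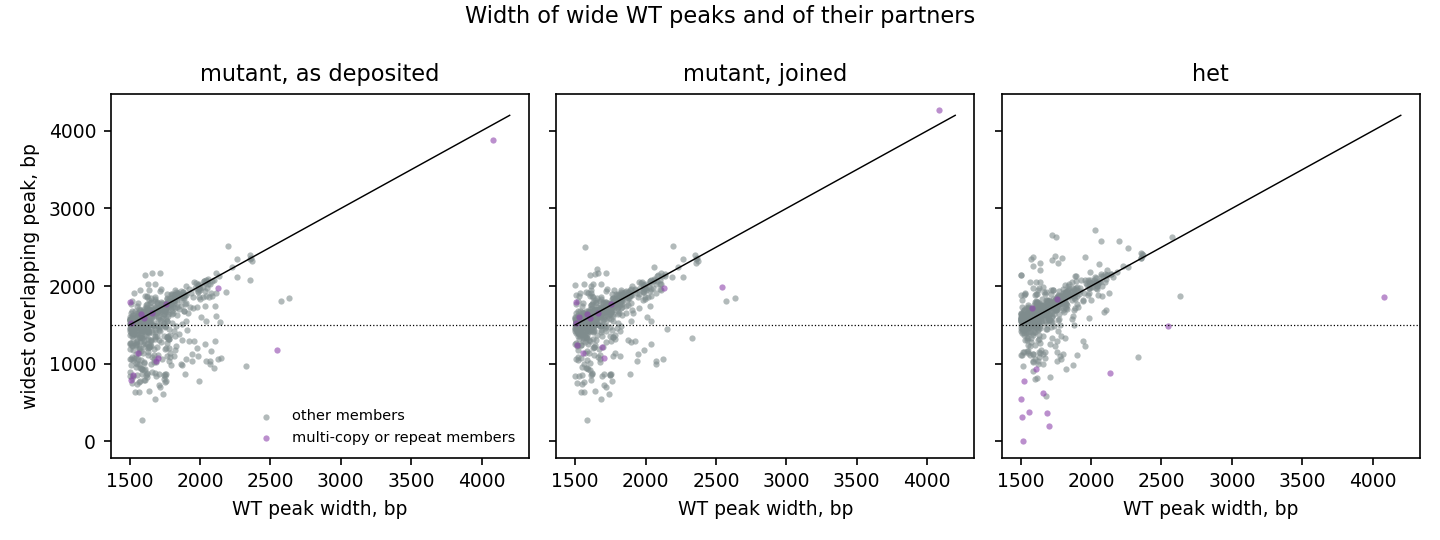
Width of each of the 632 wide WT peaks, in bp, against the width of the widest overlapping peak in the mutant list as deposited, the joined mutant list and the het list. The diagonal marks equal width and the dotted line 1500 bp. The 14 multi-copy or repeat members (purple) include most of the lowest het values, down to 0 at Gm3252.

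A peak chosen for its width in 1 list can be narrower in another for that reason alone, so widths were compared from both sides. The widest mutant peak was narrower than the WT peak in 436 of 632 members (69.0%), against 47.1% of all shared WT peaks, with a median difference of -60.5 bp against 5 bp. After joining these values were 377 (59.7%) against 45.0%, and -22.5 bp against 9 bp. For het they were 271 (42.9%) against 19.8%, and 18 bp against 86 bp. Choosing from the other side, all 517 wide mutant peaks had a WT peak, and 383 of them (74.1%, 70.1 to 77.7%) had a wide one, with a median widest WT peak of 1620 bp against their own 1658 bp. In the joined list 456 of 675 (67.6%, 63.9 to 71.0%) had a wide WT peak, and in het 509 of 963 (52.9%, 49.7 to 56.0%). Their median widest WT peak was 1601 bp against their own 1662 bp in the joined list, and 1514 bp against 1679 bp in het. Peaks chosen as wide in any of these lists thus had a narrower median in WT.

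Values at the width limit are given without a test. Of the 18 members of 1500 to 1504 bp, 8 had a mutant peak of 1500 bp or more, and of the 15 peaks of 1495 to 1499 bp just outside, 4 had one. The median widest joined mutant peak was 1556 bp inside and 1430 bp outside. Chd1, a remodeller of the Chd family, was inside at 1502 bp in WT, 1598 bp in mutant and 1550 bp in het. Rasa1, a GTPase-activating protein for Ras, was also inside, at 1502, 1581 and 1552 bp. Clock, a circadian transcription factor, fell just outside at 1499 bp in WT, with 1664 bp in mutant and 1715 bp in het, and Foxp2 was 1497 bp in WT, 1140 bp in mutant (1430 bp joined) and 1583 bp in het.

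In what follows the mutant or het width of a member is that of its widest overlapping peak, so a smaller value can mean a split rather than a smaller open region. Among the 15 widest members, 2 lay on multi-copy DNA and 12 held the start of a protein-coding gene elsewhere. The peak at the ribosomal RNA locus (chr17:39843050-39847133, gene models Gm26917 and Gm42418) was 4084 bp wide in WT, and its widest mutant peak measured 3884 bp (4268 bp joined) and its widest het peak 1858 bp. The member beside the miR-99b cluster (chr17:17826307-17828938) was 2632 bp in WT and was split over 2 peaks in each other list. The wider was 1844 bp in mutant and 1866 bp in het, and 85.8% and 94.4% of the bases were covered.
Nrg3 (chr14:39471598-39474169) measured 2572 bp against 2632 bp in het, with 2 mutant peaks of which the wider was 1802 bp. Joining did not close the gap at Nrg3, which left 84.3% of its bases covered.
Cdk13, a kinase of the RNA polymerase II tail, was 2371, 2320 and 2394 bp in WT, mutant and het. Mdga2, a synaptic adhesion protein that binds neuroligins, was 2363, 2368 and 2409 bp. Ncoa2, a coactivator of nuclear receptors, was 2357, 2347 and 2367 bp. At all of these genes 1 mutant peak spanned nearly the whole member.
Chst2, a sulfotransferase, was 2357, 2073 (2299 joined) and 2429 bp. Hivep2, a zinc-finger transcription factor, was 2330 bp in WT but lay over 4 mutant peaks, the widest 968 bp (1334 bp joined), and over 2 het peaks, the widest 1080 bp. It was thus broken up in both other genotypes, with 82.8% of its bases under mutant and 80.1% under het peaks.
Ptprk, a receptor tyrosine phosphatase, was 2263, 2354 and 2493 bp, and Slc6a15, a transporter of neutral amino acids, was 2263, 2115 and 2241 bp. Trio was 2227, 2250 and 2264 bp. Sp3, whose product binds GC boxes, was 2196, 2522 and 2580 bp and so was wider in both other lists. Lpxn and Zfp91 shared a peak of 2186 bp, with 1918 bp (2119 joined) in mutant and 2180 bp in het.

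The 5 members least covered by mutant peaks had summits of much the same height in WT and mutant, or higher in mutant. At Cacna2d3 (chr14:29721561-29723146, 1586 bp) 3 mutant peaks of at most 274 bp covered 45.7% of the bases and 2 het peaks 84.5%, yet the summit pileup was 34 tags in WT and 33 in mutant. The intergenic member chr13:63917976-63919515 (1540 bp) had 50.6% of its bases under mutant and 91.4% under het peaks, with summits of 37 and 40 tags. Uhrf1, which maintains DNA methylation at replication, was 1681 bp wide, with 55.3% under mutant and 66.5% under het peaks and summits of 59 and 57 tags.
Creb5, a bZIP transcription factor, had 62.7% under mutant and 79.3% under het peaks, and 34 and 43 tags in WT and mutant. Shb, an SH2 adaptor protein, had 64.1% and 94.8%, and 43 and 48 tags. At these 5 members het coverage was higher than mutant coverage. They were chosen for low mutant coverage, so this order is no finding. Median coverage over all members was also higher in het (98.8%) than in mutant (95.6%), and het was processed in another way. Joining did not change the widest mutant peak of any of the 5.

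**Figure D4:**
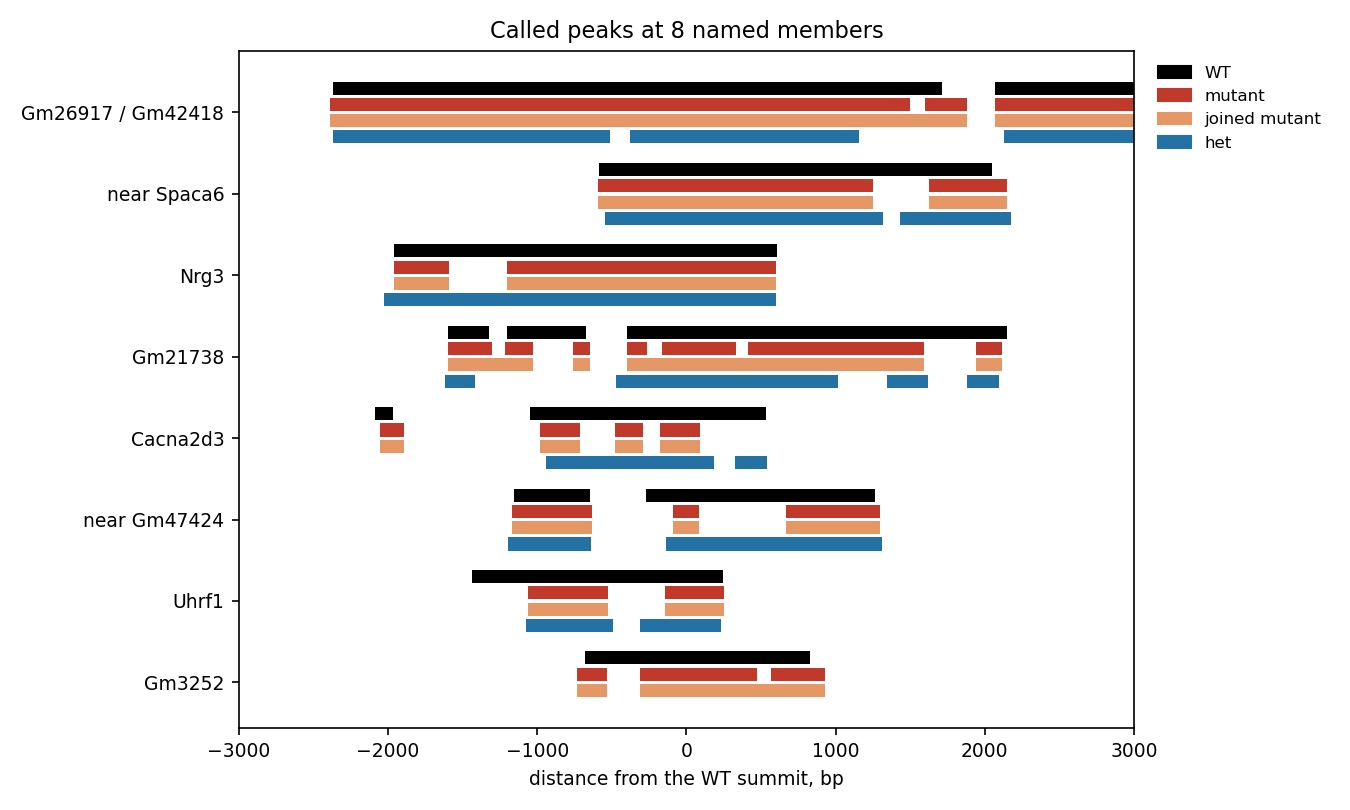
Called peaks of the WT, mutant, joined mutant and het lists at 8 members, drawn by distance from the WT summit in bp and cut off at 3000 bp on each side. The 4 widest members come first, then the 3 with the smallest share of bases under mutant peaks, then Gm3252, which has no het peak. Gaps between mutant bars at Nrg3, Cacna2d3, Uhrf1 and the Gm47424 side stay after joining.

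Summit heights differed little between WT and mutant. Pileup was divided by the number of tags and by fragment length, and the tallest overlapping mutant peak was used. On this scale the log2 ratio of mutant to WT had a median of 0.08 over the 632 members (quartiles 0.01 and 0.16, range -0.31 to 0.58), and 579 of them (91.6%) lay within 0.25 of 0, against 53.8% of all shared autosomal WT peaks. It was above 0 in 479 members (75.8%, Wilson 95% CI 72.3 to 79.0%), against 65.7% of all shared peaks. Among all start-site peaks the share above 0 was 70.7%, and at 1000 to 1499 bp it was 71.2%. The quartiles at 1000 to 1499 bp were -0.015 and 0.17, so a narrow spread was not particular to the members. The median of all shared peaks was itself 0.11 above 0, and relative to it the members' median was -0.03, with 246 of 632 (38.9%, 35.2 to 42.8%) above it. Members were therefore mostly above 0 and mostly below the typical peak, and the direction depends on which of these is the reference. By width class the median ratio was 0.15 below 200 bp, 0.10 at 200 to 499 bp, 0.07 at 500 to 999 bp and 0.08 at 1000 to 1499 bp.

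**Figure D5:**
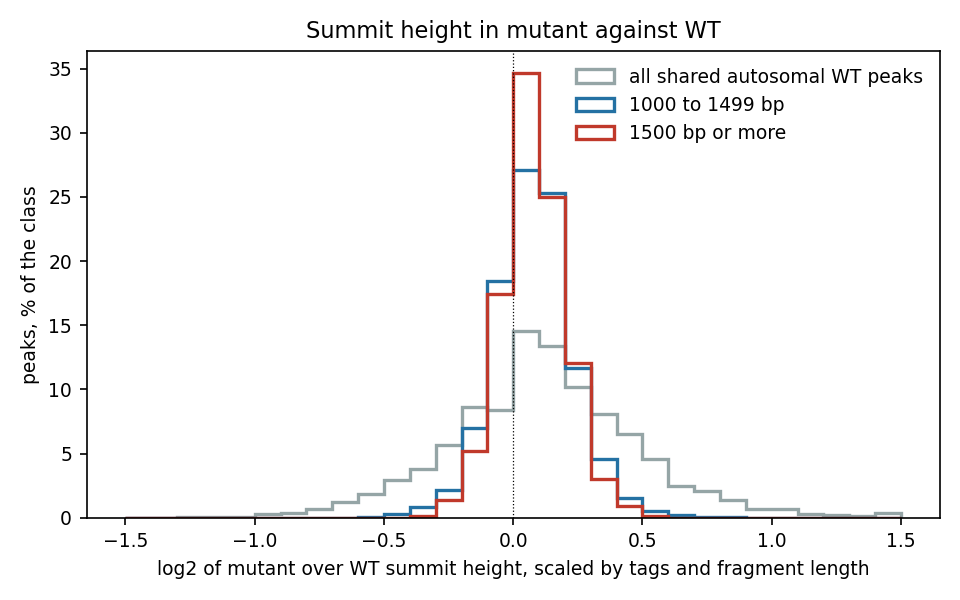
Distribution of the log2 ratio of mutant to WT summit height, scaled by tags and fragment length, as % of each class in bins of 0.1, with values past 1.5 drawn in the end bins. Peaks of 1500 bp or more form a narrow distribution around a median of 0.08, like those of 1000 to 1499 bp, and all shared peaks a broad one.

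The extremes of height were small. The lowest ratio was at Pgr, the progesterone receptor, where the summit was 45 tags in WT and 36 in mutant (log2 -0.31). It was followed by the member next to Fjx1 (46 and 37 tags, -0.30), Ppp1r14c, an inhibitor of protein phosphatase 1 (52 and 43, -0.26), Klhl29 (70 and 58, -0.26), and a multi-copy member near Gm3173 (25 and 21, -0.24). The highest was at Yap1, the coactivator of the Hippo pathway, with 31 tags in WT and 46 in mutant (0.58). Cachd1 (39 and 54 tags, 0.48), the muscarinic receptor gene Chrm2 (37 and 51, 0.48), Fbn1, which encodes fibrillin (34 and 46, 0.45), and the member shared by Fiz1 and Zfp524 (57 and 76, 0.43) came next. The most extreme pileups were small numbers of tags, and no error between libraries is available for them.

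Members far from promoters were few. Of 21 members at least 10 kb from every annotated start site, 4 were on multi-copy DNA. The other 17 comprised 10 intergenic, 6 intronic and 1 exonic summit, with a median GC of 56.3% (44.2 to 63.4%) and a median CpG ratio of 0.39, and 3 of 17 were CpG-rich. At least 80% of their bases lay under mutant peaks in 16 of 17, with a median coverage of 91.7%. A joined mutant peak of 1500 bp or more overlapped 6 of them, and a wide het peak 14.
The widest of the 21 was the mitochondrial copy on chromosome 1, described above. The next, chr2:125031107-125032897, lay between genes 35227 bp from the start of Slc24a5 and was 1791 bp in WT, 1755 bp in mutant and 1786 bp in het. The member chr6:22205239-22206931, inside an intron of Cped1, was 1693, 1351 and 1769 bp. The member chr2:30692157-30693837 near Gm14486 was 1681, 886 (1484 joined) and 1826 bp, and chr13:104509518-104511184, 173747 bp from the nearest start, was 1667, 1620 and 1654 bp. The first and last of these 4 were thus of like width in all 3 genotypes. The member in Cped1 and that near Gm14486 each lay over 2 mutant peaks, which covered 93.3% and 83.6% of their bases. Joining closed the gap near Gm14486 but not that in Cped1.

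By gene, 904 of 33437 autosomal genes (2.70%) and 714 of 20807 protein-coding genes (3.43%) had a member over the gene body or within 5 kb upstream. Long genes offer more sequence for such a match. No gene had more than 2 members, and Sox4, Satb1 and Elf2 had 2 each. Counts per gene list are read against these shares and are descriptions of small numbers.

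Factors of the granule lineage had 1 member per list. Of 4 autosomal Zic genes, which mark granule neurons and their progenitors, Zic2 alone had one (25%, Wilson 95% CI 4.56 to 69.9%), of 1648 bp in WT, 1556 bp in mutant and 1546 bp in het. Of 27 granule lineage and hedgehog genes, Gli3, a mediator of hedgehog signalling, alone had one (3.70%, 0.657 to 18.3%), of 1677, 1810 and 1710 bp. Of 4 Nfi genes, which promote granule neuron maturation, Nfib had one (25%, 4.56 to 69.9%), of 2010 bp, against the wider of 2 peaks of 1604 bp in mutant and 2050 bp in het. The master regulator Atoh1 had none of this width.

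Of 18 Sox genes, Sox11, Sox4, Sox9 and Sox5 (22.2%, 9.0 to 45.2%) had 5 members. Sox11 was 2088 bp in WT, 1875 bp in mutant (2149 bp joined) and 1670 bp in het, and Sox9 was 1754, 1687 and 1687 bp. The member at the Sox4 promoter was 1636, 1421 and 1747 bp, and lay over 2 mutant peaks that covered 91.1% of its bases. The member 4150 bp from the Sox4 start measured 2071 bp, against 2157 bp in het, and lay over 3 mutant peaks of at most 992 bp. These covered 84.5% of its bases, and its summit was 76 tags in WT and 73 in mutant. The Sox5 member, 1543 bp in an intron, was 1253 bp in mutant and 1524 bp in het.
Of 87 homeobox genes outside the Hox clusters, 4 (4.60%, 1.80 to 11.2%) had 5 members, near the 3.43% of all coding genes. Satb1, a chromatin organiser, had 1873 and 1680 bp in WT, 1304 and 1438 bp in mutant, and 1618 and 1514 bp in het. The wider of these members lay over 2 mutant peaks, which covered 94.2% of its bases. Pbx3 (1659, 1625 and 1611 bp) differed less. Zeb1 measured 1502 bp in WT, 1365 bp in mutant (1594 bp joined) and 2146 bp in het. None of 39 Hox genes had one (0%, upper Wilson limit 8.97%).
Of 35 bHLH, Id and Hes genes, 4 (11.4%, 4.54 to 26.0%) had a member. Bhlhe22 (1775, 1812 and 1848 bp), Tcf12 (1614, 1520 and 818 bp) and Hey1, a target of Notch (1508, 1551 and 1537 bp), were single peaks in mutant, and Bhlhe40, of 1761 bp, lay over 3 mutant peaks of at most 777 bp.
Of 24 cell cycle regulators, 3 (12.5%, 4.34 to 31.0%) had one. Cdkn2c, an inhibitor of Cdk4 and Cdk6, was 2113 bp in WT, 1612 bp in mutant (2029 joined) and 2207 bp in het. Cdk6 measured 2073 bp, against 2577 bp in het, and lay over 3 mutant peaks of at most 1031 bp, which covered 87.6% of its bases. Ccne2, cyclin E2, was 1996, 1860 and 1988 bp. Their scaled summits in mutant over WT were at log2 0.23, 0.04 and 0.18.

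Other lists held 0 to 2. Among 9 Chd remodellers only Chd1, described at the width limit, had a member. Among 27 immediate early genes only Egr1 had one, of 1942 bp in WT, split over 3 mutant peaks of at most 1031 bp and 2 het peaks of at most 1289 bp. Of 29 Wnt ligands and receptors, Wnt5b and Fzd4 had one. The Wnt5b member overlapped its gene body, but the only start site inside was that of Fbxl14. It was 1611 bp in WT, 932 bp in mutant (1912 bp joined) and 1893 bp in het. The Fzd4 member was 1558, 1526 and 1524 bp. None was found at 20 Fgf ligands, 13 Bmp ligands or 27 markers of other cerebellar cells, with upper Wilson limits of 16.1%, 22.8% and 12.5%.

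Neuronal genes that the study linked to Chd7 were also examined. Of 9 neuronal genes picked from those the study names, 3 had a member. Zfpm2 was 1912, 1652 and 1893 bp in WT, mutant and het, and Nkain3 was 1738, 1584 and 1774 bp. Top2b, per the study the only topoisomerase II expressed in postmitotic granule neurons, was 1615, 1726 (2002 joined) and 1773 bp. The Zfpm2 member lay over 2 mutant peaks, which covered 91.4% of its bases. At all 3 genes the scaled summit was higher in mutant than in WT, at log2 0.11, 0.09 and 0.10. These values were near the median of 0.11 over all shared peaks, and 75.8% of all members were above 0. The study reported decreased ATAC-seq peaks at Nkain3 upon Chd7 loss. The member is only the peak at the Nkain3 start site, and the other peaks of the gene were not compared here. Cacna2d1, a calcium channel subunit gene that the study also names, was not among the 9 and was added after its values were seen, at 1788 bp in WT, 1811 bp in mutant and 1847 bp in het. Of the study's 151 Chd7-activated genes, 131 were matched on autosomes and 19 of those (14.5%, 9.49 to 21.5%) had a member, 18 members in all. A second list held 203 genes activated by both Chd7 and Top2b that also rose upon differentiation, the part of a longer list that was used here. Of these, 177 were matched and 37 (20.9%, 15.6 to 27.5%) had one. These shares are above the 3.43% of all coding genes, but the lists were chosen by the study on expression in GNPs of these genotypes and in granule neurons, expression and gene length were not matched here, and the lists are not independent evidence of a direction.
Over the 18 members at Chd7-activated genes, the median share of bases under mutant peaks was 96.4%, against 95.6% over all members, and the median log2 height ratio was 0.05 against 0.08. The scaled summit was higher in mutant in 11 of 18, beside the 75.8% of all members, and 16 of 18 had a joined mutant peak of 1500 bp or more, beside 72.2%. Among these genes Ptprk and Slc6a15 were described above. Ppfia2, a liprin of the presynaptic active zone, was 2080 bp in WT, 1158 bp in mutant (2125 bp joined) and 2006 bp in het, and the gene model Gm15723 was 1953, 1722 and 2374 bp.
Over the 37 members at this second list, the median ratio was 0.07, and 30 of 37 were above 0, beside the 75.8% of all members. Beside Nrg3, Ptprk and Ppfia2, Pkp4, a plakophilin, was 2051, 2069 and 2045 bp. Cadps, a regulator of dense-core vesicle release, was 2034, 1748 and 2049 bp, and its summit was 66 tags in WT and 77 in mutant.

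Some members contain microRNA genes. Kctd12 holds Mir5130 in a member of 1962 bp, Clcn4 holds Mir5620 in 1820 bp, Dner holds Mir5126 in 1757 bp, Eif4e holds Mir1956 in 1686 bp, Ddhd1 holds Mir5131 in 1639 bp and Akt1s1 with Tbc1d17 holds Mir707 in 1614 bp. Mutant coverage of these 6 ranged from 82.4% at Dner to 99.3% at Akt1s1.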

How the data were processed

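ATAC-seq was performed on P7 GNPs, with 8 libraries in 3 genotypes. Peaks were called by the authors with MACS2 on pooled libraries without a control. The 3 lists held, as deposited, positions in mm10, pileup signal at the summit, fold enrichment (a ratio to local background) and -log10 q values, at a q cutoff of 0.05. All columns were mapped to a group (0 left out), and the p-value column was not used. The submitters' processing notes name Trim Galore 0.4.1, STAR 2.5.0b, Bowtie 1.0.0, Picard 1.139 and MACS2 2.1.0.20150731. The headers record 50394313 filtered WT tags, 51030229 mutant tags and 30923002 het tags, which set the precision of each pileup.

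Wide peaks, overlaps of at least 1 bp, covered bases, base composition and motifs were computed with python 3.11.15, numpy 2.4.6, pandas 2.3.3 and scipy 1.17.1, and checked on simulated intervals. Start sites came from GENCODE M21 (basic), sequence from RefSeq GRCm38.p6, and other copies from minimap2 2.31. Shares have Wilson 95% intervals, which cover counting error over peaks only. Technical replicates were pooled, so no p-values were computed. Named members were the 15 widest, those without a partner, the 5 most extreme on each side of the height ratio, the 5 least covered in mutant, the 5 widest far from start sites, up to 5 for each gene list, and peaks within 5 bp of the limit. Members at the limit were named in part, and the microRNA genes inside members were added after their values were seen. The members and gene lists were chosen with earlier results of these data known. Some members named by this rule are not reported here.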

Additional observations from a re-analysis of the deposited data

Results flagged for a closer look

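Wide WT peaks also lay outside the autosomes, on chromosomes that the comparisons did not use. Chromosome X held 34 of 3309 WT peaks (1.03%), against 0.422% of autosomal peaks. Of these 34, 30 held a start site, all 34 had a mutant and a het peak, the median share of bases under mutant peaks was 94.2%, and the widest, at Cnksr2, measured 2244 bp. The WT list also held 2 wide peaks on mitochondrial DNA. These peaks were called against the local background of the same libraries, with no control library, and pups of both sexes were not told apart in the study's methods.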

How the results depend on the processing

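Of 56 values recomputed under other settings, 9 of them with a setting added after seeing the data, 32 stayed within the interval of the value reported and 24 did not. At a 1000 bp limit, the share overlapped by a mutant peak of that width was 74.8% and by a het peak 88.7%, the split share 19.1%, coverage of at least 80% by mutant peaks 92.2%, start sites 81.6% and higher mutant summits 71.8%. At 2000 bp (54 members), these were 40.7%, 72.2%, 46.3% and 98.1%, with higher summits in 81.5% and a het peak in 100%. With mutant peaks joined, 72.2% were overlapped by a wide mutant peak and 17.2% were split. With partner peaks at -log10 q of 5 or more, 26.4% were split and 93.0% covered by mutant peaks. With 50% reciprocal overlap, 94.6% had a mutant and 97.3% a het partner. With 50% of bases, coverage held in 99.8% for mutant and 99.1% for het. A start within 1 kb of the edges was found for 94.1%, and the rank of -log10 q was higher in mutant for 66.3%. Without the 14 multi-copy members, 100% had a het peak and 97.4% were covered by het peaks. Causes were not tested beyond what each alternative changes by construction. The share on repeats had no alternative. No paired analysis was possible because each list pools the libraries of a genotype, and leaving out replicates was not run for the same reason. Depth limits single summits, whose WT pileups of 23 to 176 tags have no error between libraries.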
